A study of Mus musculus with 6 samples.

Results

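The integrins and cadherins on the arrays were taken as all non-control probes whose whole gene name was Itga, Itgb or Cdh followed by a number, with an added letter allowed. This gave 66 probes of 42 genes, 36 for 21 integrin genes and 30 for 21 cadherin genes, among 41174 non-control probes carrying 29742 names. Their RNA levels were compared in primary fibroblasts of mouse embryos on 6 Agilent whole-genome arrays of 60-mer probes with 2 dyes, 2 arrays per comparison. Wild type cells and Wrn Δhel/Δhel cells, which carry a deletion inside the Wrn helicase region, came from embryos of day 15 on a mixed genetic background. Wrn is the mouse ortholog of the gene mutated in Werner syndrome, a disorder of premature aging. The treated cells of either genotype were given 0.5 mM H2O2 for 1 h and recovered for 24 h before RNA extraction. Replicates 1 and 2 set treated against untreated wild type cells, another replicate 1 and 2 set treated against untreated mutant cells, and replicates 3 and 4 set mutant against wild type cells, both untreated. The labels call them biological replicates and do not say whether the embryos differed, so the p-values measure the spread between these arrays.

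Integrins are receptors of 1 α and 1 β chain that join the extracellular matrix to the actin cytoskeleton through talin, vinculin and focal adhesion kinase. The α chain largely sets the ligand: collagen, laminin, or the Arg-Gly-Asp (RGD) motif of fibronectin and related proteins. Cadherins hold like cells together through calcium-dependent binding of their ectodomains, and the classical ones reach actin through the catenins. Embryonic fibroblasts are known for α5β1, αv integrins, Cdh2 (N-cadherin) and Cdh11 (OB-cadherin), while Cdh1 (E-cadherin) belongs to epithelia and Cdh5 (VE-cadherin) to endothelium.

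The probe sequences were not used here. Of the 42 genes, 28 had a promoter in the RefSeq table of GRCm38.p6, and those of 5 genes whose probes differed between the genotypes are shown as examples of either direction. Itga8, Itga11 and Itga4 had 2, 1 and 2 probes that were higher in untreated mutant cells, while another probe of Itga8 was lower and another of Itga4 was not called, and Cdh10 and Cdh20 had probes that were lower. Each sequence is the 250 bases before the start of transcription, 5′ to 3′, and capitals mark a GC box (GGGCGG) or a CCAAT box (CCAAT), searched on both strands.
Itga8, chr2:12301945-12302194, minus strand: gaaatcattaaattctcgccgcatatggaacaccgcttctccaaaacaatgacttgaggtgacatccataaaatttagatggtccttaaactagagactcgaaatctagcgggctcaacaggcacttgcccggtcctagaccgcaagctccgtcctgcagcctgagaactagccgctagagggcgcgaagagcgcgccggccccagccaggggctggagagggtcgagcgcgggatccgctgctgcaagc
Itga11, chr9:62677605-62677854, plus strand: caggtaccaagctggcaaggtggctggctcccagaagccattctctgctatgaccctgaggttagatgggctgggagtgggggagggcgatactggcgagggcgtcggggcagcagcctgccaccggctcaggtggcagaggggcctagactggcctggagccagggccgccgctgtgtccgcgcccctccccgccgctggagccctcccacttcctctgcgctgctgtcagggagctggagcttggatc
Itga4, chr2:79255176-79255425, plus strand: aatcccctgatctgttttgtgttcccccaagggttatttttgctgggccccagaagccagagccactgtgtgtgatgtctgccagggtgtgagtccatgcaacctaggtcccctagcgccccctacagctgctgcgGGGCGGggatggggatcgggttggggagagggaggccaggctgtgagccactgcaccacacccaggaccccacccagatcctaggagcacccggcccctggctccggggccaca
Cdh10, chr15:18820079-18820328, plus strand: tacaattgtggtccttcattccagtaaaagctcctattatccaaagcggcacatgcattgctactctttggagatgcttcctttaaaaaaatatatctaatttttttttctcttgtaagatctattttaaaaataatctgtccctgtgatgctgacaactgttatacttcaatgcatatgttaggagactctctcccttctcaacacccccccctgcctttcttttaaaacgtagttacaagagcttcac
Cdh20, chr1:104768270-104768519, plus strand: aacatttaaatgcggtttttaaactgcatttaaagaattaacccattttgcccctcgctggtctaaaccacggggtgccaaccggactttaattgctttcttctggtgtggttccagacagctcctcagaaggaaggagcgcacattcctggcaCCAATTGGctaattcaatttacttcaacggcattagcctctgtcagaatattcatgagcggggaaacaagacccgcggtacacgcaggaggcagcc
The Itga4 promoter held 1 GC box and the Cdh20 promoter 2 overlapping CCAAT boxes, 1 on each strand. None of the 5 held the AP-1 motif TGANTCA or a TATA box (TATAAA). Of all 32851 promoters, 32.7% held the GC box, 33.8% the CCAAT box, 6.75% the AP-1 motif and 12.4% the TATA box. The G and C content of the windows was 56.4% for Itga8, 68.4% for Itga11, 64% for Itga4, 36.8% for Cdh10 and 47.6% for Cdh20, against a median of 52.4%. These matches describe the letters of the windows only.

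Most members gave a signal in at least 1 dye. A probe is well above background where its signal exceeds the local background by 2.6 times the background's standard deviation, by the setting of the Feature Extraction software. In Cy3, which carried the untreated cells on the treatment arrays, 49 of the 66 probes (74.2%, against 67.7% of all probes) were well above background on all 6 arrays. In both dyes on all 6 arrays there were 23 (34.8%, against 38.2%), from 19 genes, and 12 were never well above background in Cy5. On every array more members passed in Cy3 than in Cy5. Among the members above background in both dyes throughout were Itga5, the α chain of the fibronectin receptor, Itga1, Itga10, Itga6, 2 probes of the common β chain Itgb1, Itgb3, Itgb5, Cdh6, 1 probe of Cdh2 and all 3 of Cdh11. The others were the leukocyte chains Itgb2 and Itgb7, Itgb2l, Cdh15 of muscle satellite cells, the kidney cadherin Cdh16, Cdh18 and 1 probe each of Itga4, Itga7 and Itga8. The epithelial Cdh1 was well above background on 1 array in Cy3 and on none in Cy5. The probes of the endothelial Cdh5 were so in Cy3 on 5 and 4 arrays, and in Cy5 on at most 1 array. No member spot was saturated.

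**Figure D1:**
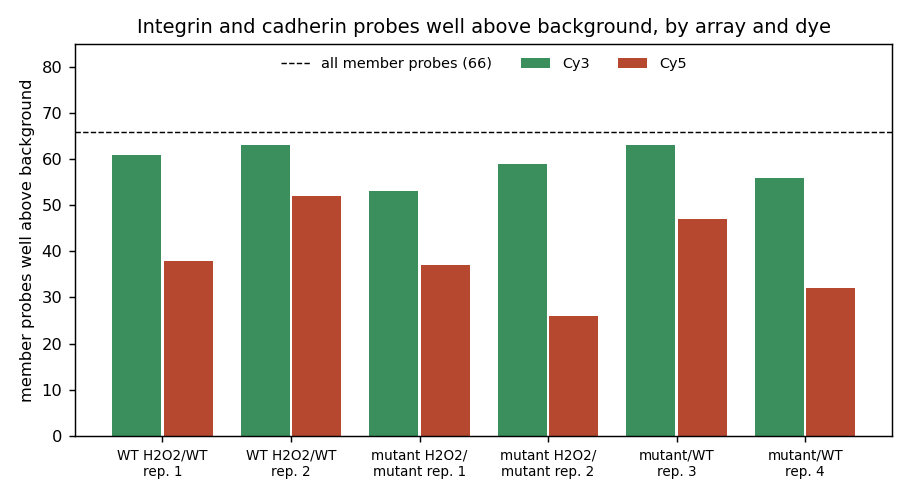
Number of the 66 integrin and cadherin probes well above background (vertical axis) on each of the 6 arrays, in Cy3 and Cy5; the dashed line marks all 66. Cy3 counts lay between 53 and 63 and Cy5 counts between 26 and 52, with Cy3 higher on every array.

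Some properties of the whole series bear on every value. Between 0.4% and 22.6% of the spots per array were marked as outliers by the software and left out, most of them on wild type replicate 2, which lost 22 member probes. All 10 fibroblast marker genes had probes on the arrays, and 9 had at least 1 probe above background in both dyes on all 6 arrays. In untreated mutant against wild type cells 8 of the 19 fibroblast marker probes were called higher and none lower, against 10.2% and 9.76% of all probes. At an unadjusted p under 0.05 in limma 12 were higher and 1 lower, against 18.4% and 17.5% of all probes. The summed level of the list in Cy3 of the treatment arrays was 15.52 to 15.79 in untreated wild type and 16.15 to 16.47 in untreated mutant cells on the log2 scale. The part of this shift in the values of the members was not tested. Wrn itself had 4 probes, whose log2 ratios on replicates 3 and 4 were 0.53 and 0.20, 0.22 and -0.23, 0.63 and 0.13, and -0.77 and -1.04. Only the last was called, and where these probes lie relative to the deleted part is not known, so they do not check the genotype.

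The dyes of replicates 3 and 4 are not settled. The sample labels put wild type RNA in Cy5 and mutant RNA in Cy3, whereas the study's own list of these arrays runs Cy5 over Cy3 as mutant over wild type. The latter was used here as the likely direction, and every sign on these 2 arrays would turn under the former. A comparison that does not depend on it sets the Cy3 signals of the 2 untreated mutant samples against those of the 2 untreated wild type samples on the treatment arrays. Of the 21 called members with a value in both, 19 (90.5%) had the same sign in the Cy3 comparison, as had 89.2% of the 8012 such probes overall. Marked spots left some of these members with a single Cy3 value on one side. This was the wild type side for Itga11, Cdh2 (A_51_P262773), Cdh3, Cdh10, Cdh20 and Itga8 (A_52_P658911). It was the mutant side for Cdh15 and Itga6 (A_51_P262401). Whether the RNA of the arrays came from the same cultures is not stated.

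Untreated mutant cells differed from untreated wild type cells in 22 of the 66 probes (33.3%), from 17 genes, at a Benjamini-Hochberg adjusted p under 0.05 in limma, against 19.9% of all 41099 probes tested. Of these, 11 were higher and 11 lower (16.7% of the members each), against 10.2% and 9.76% of all probes. The higher set held 8 integrin and 3 cadherin probes and the lower set 3 integrin and 8 cadherin probes. Of the 9 called α chain probes 7 were higher, from Itga8, Itga6, Itga11 and Itga4. At an unadjusted p under 0.05 in limma there were 31 members (47%), 15 higher (22.7%) and 16 lower (24.2%), against 36%, 18.4% and 17.5% of all probes. The median log2 ratio of all members was -0.09 against 0.01 over all probes. All 21 called members with 2 values had the same sign on both arrays. Under the study's thresholds of an adjusted p under 0.005 and a mean log2 intensity above 6, 1 member (1.52%) was left, a probe of Itga8 that was higher. Of all probes 2.01% passed in either direction and 1.33% higher.

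**Figure D2:**
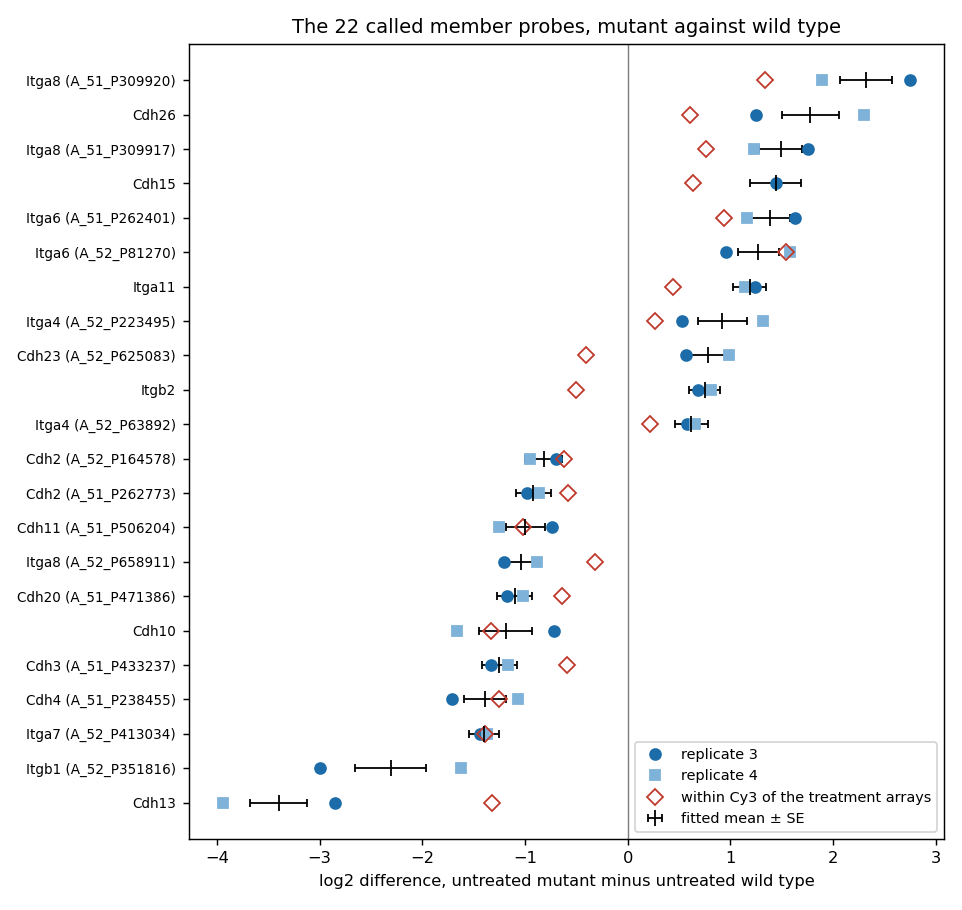
Log2 difference of untreated mutant minus untreated wild type cells (horizontal axis) for the 22 called probes: replicate 3 (circles), replicate 4 (squares), the limma estimate with its SE, and the difference within Cy3 of the treatment arrays (open diamonds). The estimates run from -3.40 for Cdh13 to 2.32 for Itga8, and the diamonds lie on the other side of 0 for Itgb2 and Cdh23.

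Among the α chains, Itga8 showed the largest rise. Itga8 pairs with β1 and binds nephronectin and fibronectin on mesenchymal and smooth muscle cells. Its probe A_51_P309920 gave log2 ratios of 2.75 and 1.89, a 5-fold higher signal in mutant cells (2.32 ± 0.25, SE, limma adjusted p = 0.00241). Its probe A_51_P309917 gave 1.76 and 1.23 (1.49 ± 0.21, adjusted p = 0.00546 by limma). The remaining probe, A_52_P658911, went the other way with -1.20 and -0.88, and was called lower (-1.04 ± 0.19, adjusted p = 0.0157 by limma). So the 3 probes of Itga8 did not give 1 direction for the gene. In the Cy3 comparison the same probes gave 1.34, 0.76 and -0.32 in that order, the last with a single wild type value. The unadjusted p of A_51_P309920 and A_51_P309917 there were 0.00354 and 0.0711 in limma across all probes.

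The laminin-binding chains moved in both directions. Itga6, which pairs with β1 or with the hemidesmosomal β4, gave 1.63 and 1.16 with one probe and 0.96 and 1.58 with the other. Both were called higher, 2.63-fold and 2.41-fold, with limma adjusted p of 0.0064 and 0.00679. The Cy3 comparison gave 0.94, with a single mutant value, and 1.54. Itga6 and Cdh2 were the only genes with several probes, of 11 such called genes, whose probes were all called in 1 direction. Itga7, the laminin receptor chain of muscle, gave -1.44 and -1.37 with probe A_52_P413034 (-1.40 ± 0.15, adjusted p = 0.00235 by limma). The mutant channel of this probe was not well above background on either array, which bounds the difference at at least 2.03-fold lower. The second probe of Itga7 gave -1.58 and -0.32 and was not called (adjusted p = 0.0753 by limma). The 3 probes of Itga3, a receptor chain of epithelial laminins, had estimates of 0.08, -0.35 and -0.29, none of them called.

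Of the collagen receptors, Itga11, the main fibrillar collagen receptor chain of mesenchyme, was higher in the mutant. Its log2 ratios of 1.24 and 1.14 lay close together (1.19 ± 0.16, 2.28-fold, limma adjusted p = 0.00673). The Cy3 comparison gave 0.44, with a single wild type value. Itga1, the broadly expressed collagen receptor chain, had a marked spot on replicate 3 and 0.20 on replicate 4. Itga4, which binds fibronectin and Vcam1, was higher with 2 of its 3 probes, at 0.53 and 1.32 (adjusted p = 0.0356) and at 0.58 and 0.66 (adjusted p = 0.0353 by limma), the latter with a mutant channel not well above background on replicate 4. The third gave -0.28 and -0.47 and was not called. Itga5 gave 0.24 and 0.48 (0.36 ± 0.18, adjusted p = 0.198 by limma). The platelet integrin chain Itga2b gave -0.71 and -0.55 (adjusted p = 0.125 by limma).

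Among the β chains, 1 probe of Itgb1 and the probe of Itgb2 were called. Itgb1 is the partner of most of the α chains above. Its probe A_52_P351816 gave -3.00 and -1.62 (-2.31 ± 0.35, 4.97-fold lower, limma adjusted p = 0.0132). The Cy3 comparison had a value for this probe only with marked spots kept, at -0.76. With them kept, untreated mutant RNA read lower in Cy5 of replicates 3 and 4 than in Cy3 of the treatment arrays, by a log2 difference of -1.04. The part of dye bias in the ratios of this probe was not tested. The Itgb1 probe A_51_P286527 had a marked spot on replicate 3 and -0.91 on replicate 4 (adjusted p = 0.0612 by limma), and with marked spots kept its ratios were -1.32 and -0.91 (-1.11, adjusted p = 0.00612 by limma). The third, A_52_P69236, gave -0.79 and 0.10 and was not called, and its mutant channel was not well above background on either array. With marked spots kept, the ratio of Itgb1 was thus below 0 on replicates 3 and 4 with the 2 probes whose mutant channel was well above background. Itgb2, the β chain of leukocyte integrins, was higher at 0.68 and 0.81 (0.75 ± 0.15, limma adjusted p = 0.0174), while the Cy3 comparison gave -0.50 (unadjusted p = 0.363 in limma). The Cy3 levels behind it were 6.1 and 7.98 in wild type and 6.47 and 6.62 in mutant cells on the log2 scale. The wild type values thus lay on either side of the mutant ones, and with marked spots kept the difference was -0.01.

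No other β chain probe was called. Itgb5, an αv partner that binds vitronectin, gave 0.55 and 0.33 (adjusted p = 0.131 by limma). Itgb3, the other main αv partner, kept only replicate 4, at -0.43, and with marked spots kept its values of -1.04 and -0.43 were called lower (-0.74, adjusted p = 0.0486 by limma). Itgb3 and the Itgb1 probe above were the members gained when the marked spots were kept. Itgb7, a leukocyte chain, gave -1.06 and -0.21 (adjusted p = 0.111 by limma), and the 2 probes of the epithelial Itgb4 lay between -0.16 and -0.01 on the 2 arrays.

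Of the classical cadherins of type I, Cdh2, Cdh4 and Cdh3 had probes that were lower in mutant cells and Cdh15 was higher. Cdh2, which links fibroblasts to one another, gave -0.98 and -0.86 with one probe and -0.70 and -0.95 with the other, and both were called lower (limma adjusted p = 0.0154 and 0.0225). The difference was 1.89-fold for the first, and the mutant channel of the second was well above background on replicate 3 only. Cdh4 (R-cadherin) gave -1.71 and -1.07 with probe A_51_P238455 (-1.39 ± 0.20, adjusted p = 0.00568 by limma), and -1.25 in the Cy3 comparison (unadjusted p = 0.00548 in limma). Cdh3 (P-cadherin) gave -1.33 and -1.17 with probe A_51_P433237 (-1.25 ± 0.17, adjusted p = 0.0066 by limma). The second probes of Cdh4 and Cdh3, well above background in Cy5 on 0 and 2 of the 6 arrays, gave 0.49 and -0.56 for Cdh4 and 0.32 and -0.48 for Cdh3 and were not called. Cdh15 (M-cadherin), of muscle satellite cells, had 1 unmarked spot at 1.44, which was called higher. With 1 genotype value, the spread behind this call did not come from the genotype arrays. With its marked spot kept it gave 1.44 and 0.39 (0.92, adjusted p = 0.0385 by limma). The epithelial Cdh1 gave -0.28 and 0.78, both from a mutant channel that was not well above background.

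Of the type II cadherins, 3 genes were called, all lower. Cdh11, the main type II cadherin of mesenchyme, gave -0.74 and -1.25 with probe A_51_P506204 (-1.0 ± 0.19, 2-fold lower, limma adjusted p = 0.013). In the Cy3 comparison its log2 level was 10.26 in wild type and 9.23 in mutant cells. The other 2 Cdh11 probes gave 0.14 and -0.94, and a single -0.25, and were not called. Cdh20 gave -1.18 and -1.02 (adjusted p = 0.00906) and Cdh10 gave -0.72 and -1.66 (adjusted p = 0.0264 by limma). Both are cadherins best known from the nervous system, and the mutant channel of both was well above background on replicate 3 only. The second Cdh20 probe gave -0.50 and 0.50. Cdh5 showed no common shift, with -0.02 and 0.06 for one probe and -0.12 and -0.70 for the other.

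Cdh13 was lower in mutant cells by a size that these arrays measured poorly. Cdh13 (T-cadherin) lacks the intracellular part of classical cadherins, sits on the membrane by a lipid anchor and binds adiponectin. Its ratios were -2.85 and -3.94 (-3.40 ± 0.28, limma adjusted p = 0.0011), but the mutant channel was not well above background on either array, so the log2 ratio itself is not a measured size. Against the lowest signal well above background, the difference on these 2 arrays was at least 4.8-fold, a bound open to dye bias. The normexp correction and the Cy3 comparison gave differences smaller than this bound. With the normexp background correction in place of subtraction, its log2 ratio was -0.90 (adjusted p = 0.0383 by limma). In Cy3 of the treatment arrays its log2 level was 6.13 in wild type and 4.81 in mutant cells, a difference of -1.32 (unadjusted p = 0.00589 in limma). Cdh26, an atypical cadherin that binds integrins, was higher at 1.25 and 2.30 (1.78 ± 0.28, 3.43-fold, adjusted p = 0.00727 by limma). Its difference in the Cy3 comparison was smaller, at 0.61 (unadjusted p = 0.167 in limma). Under the alternative processing settings its log2 ratio lay between 0.51 and 2.30. Cdh23, a tip link protein of hair cells, was higher with one probe at 0.57 and 0.99 (adjusted p = 0.0297 by limma) and gave -0.30 and -1.02 with the other, which was not called.

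**Figure D3:**
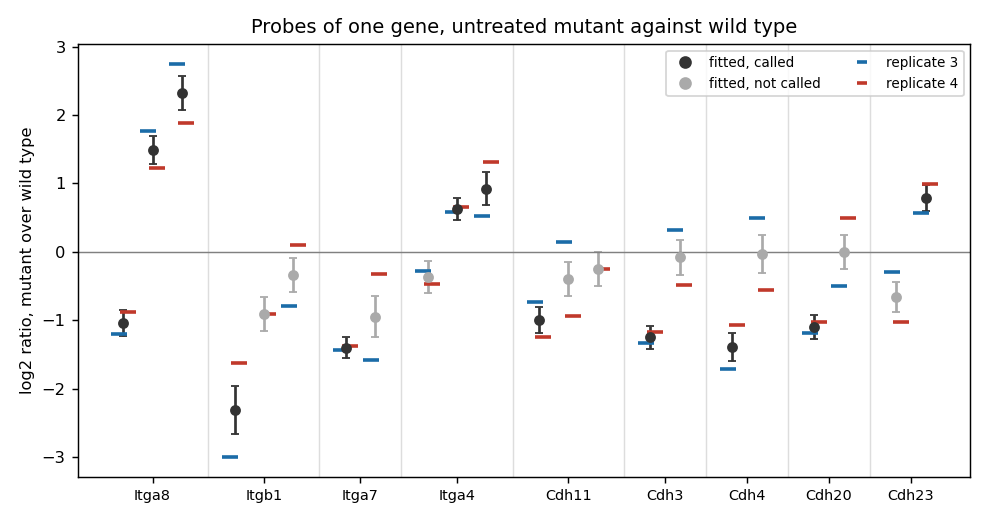
Log2 ratio of mutant over wild type (vertical axis) for each probe of 9 called genes with more than 1 probe: estimates with SE (circles, dark where called) and the values of replicates 3 and 4 (dashes). The probes of Itga8, Itga4 and Cdh23 lie on both sides of 0.

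The other 44 members were not called. Their estimates ran from -0.95 to 1.01, and of the 35 with a value on both arrays 13 had opposite signs on the 2. In the Cy3 comparison none of 62 members passed an adjusted p under 0.05 in limma, against 0.474% of all probes. In that comparison 8 of the 62 members had an unadjusted p under 0.05 in limma and the same sign as on the genotype arrays. So had 3627 of all 40228 probes. The lowest adjusted p of a member there was 0.179, for Itga6. Over all 62 members the sign was the same in both comparisons for 44 (71%), against 65.4% of all probes, and the Cy3 comparison was shifted down by a median of -0.32 for members and -0.11 for all probes. When the genotype arrays were fitted without the treatment arrays, 6 of the 66 members were called, against 3.74% of all probes. All of them were among the 22: 2 probes of Itga8 and 1 each of Cdh13, Itgb1, Itga7 and Cdh26.

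**Figure D4:**
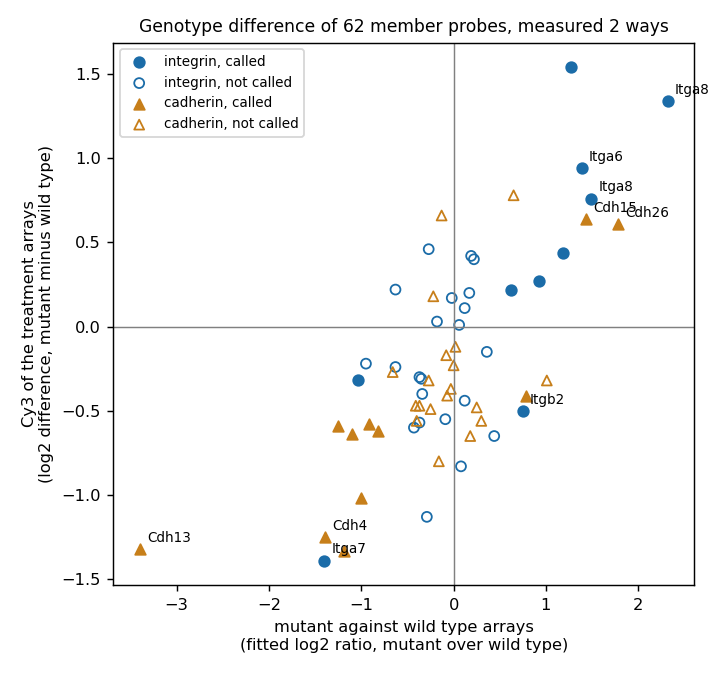
Genotype difference of the 62 member probes with both values: limma estimate from the mutant against wild type arrays (horizontal) against the difference within Cy3 of the treatment arrays (vertical), both log2; circles are integrins, triangles cadherins, and filled symbols are called on the horizontal axis. Filled symbols fall in the upper right or lower left quadrant for 19 of 21.

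In wild type cells, no member passed the test for a response to H2O2 in the fit of all 6 arrays. Under the study's thresholds, here with a 2-fold change added, that fit left 0 members and 0 of all 40303 probes. The study itself reported changed genes for this comparison at these thresholds. Of 62 members with a value none was called by limma at an adjusted p under 0.05, against 0.836% of all 40303 probes (0.422% higher and 0.414% lower). An unadjusted p under 0.05 in limma was reached by 19 members (30.6%), against 19.9% of all probes. Of these 6 were higher and 13 lower (9.68% and 21% of the members), against 10% and 9.89% of all probes. The lowest adjusted p was 0.0555. The median log2 ratio of the members was -0.14 against -0.01 over all probes. Spots of 4 members, 2 probes of Itgb1 and those of Itga1 and Itgb5, were marked on both arrays, and 19 members had 1 value.

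Several members lay below 0 on both arrays, Cdh4 the lowest of them. Cdh4 gave -1.22 and -0.94 in treated against untreated wild type cells (-1.08 ± 0.20, limma adjusted p = 0.0555). Itga7 gave -0.78 and -0.82 (-0.80 ± 0.15, adjusted p = 0.0568 by limma), from a treated channel not well above background, which bounds it at at least 1.51-fold. Cdh13 gave -1.26 and -0.73 (adjusted p = 0.115 by limma), and 1 probe of Cdh11 -0.54 and -0.87 (adjusted p = 0.0989 by limma). The treated channel of Cdh13 was not well above background on replicate 1, so the -1.26 is not a measured size. Single unmarked spots gave -1.35 for the other Itga7 probe, -1.07 for Itga2b, -1.0 for Cdh10, -0.95 for Itgb7 and -0.91 for Cdh3. On these spots the treated channel of Itga2b and Cdh10 was not well above background. With the marked spots kept, 3 members were called lower, against 2.39% of all probes (1.17% higher and 1.22% lower). They were Cdh4 and Itga7, with adjusted p of 0.0456 and 0.0473, and an Itgb1 probe, A_52_P351816, at -1.78 and -1.82 (adjusted p = 0.0434 by limma). Of the other Itgb1 probes, A_51_P286527 then gave -0.34 and -0.07, and Itgb5 gave -0.86 and -0.72 (adjusted p = 0.0562 by limma). Itga1 then gave -0.53 and 0.09.

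Of the members with 2 values, the highest ratios were those of Cdh17 (liver-intestine cadherin), at 1.10 and 0.66 (adjusted p = 0.0964 by limma), Itga6, at 0.59 and 0.71 (adjusted p = 0.132), and Itga4, at 0.63 and 0.48 (adjusted p = 0.255). Among the fibroblast members, Itgb3 gave -0.99 and -0.46, Itga11 a single -0.47, Cdh11 between -0.87 and -0.11 over its 3 probes, and Itga5 a single 0.01. When the wild type treatment arrays were fitted alone, 23 of the 62 members were called, 7 higher and 16 lower, against 26.5% of all probes. Cdh4 (A_51_P238455) also passed the study's thresholds there, as did Itga7 (A_51_P181671), the latter from 1 unmarked spot. The 16 lower ones were 9 integrin and 7 cadherin probes, against 13.3% of all probes lower and 13.2% higher. The integrins lower there were both probes of Itga7, 2 of Itga8 (-0.49 and -0.77), Itgb3, Itgb7 (-0.95), Itga2b (-1.07), Itga9 (-0.41) and 1 probe of Itga3 (-0.58). Another probe of Itga3 was higher (0.53), as were Itga6 and Itga4. The cadherins lower there were Cdh4, Cdh13, Cdh3, Cdh10 (-1.0), Cdh23 (-0.64), 1 probe of Cdh11 (-0.70) and 1 of Cdh2 (-0.50). Cdh17, Cdh24 (0.88), Cdh5 (0.51) and the kidney cadherin Cdh16 (0.46) were higher. Itgb7, Itga2b, Cdh3, Cdh10, Cdh23, Cdh24, 1 probe of Itga7 and 1 of Itga8 rested on 1 unmarked spot each. The treated channel was not well above background on that spot for Itga2b and Cdh10, nor on either array for Itga9.

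In mutant cells, no member passed the test for a response to H2O2 in the fit of all 6 arrays either. None of 66 members was called by limma at an adjusted p under 0.05, and neither was any of all 41052 probes (0%). An unadjusted p under 0.05 in limma was found for 12 members (18.2%), 8 higher (12.1%) and 4 lower (6.06%). Of all probes 12% had it (6.07% higher and 5.97% lower). The median log2 ratio was 0.03, against 0.01 over all probes. Itga11 gave -0.95 and -0.97 (-0.96 ± 0.16, limma adjusted p = 0.217). Itga2b gave -1.93 and -1.01 (adjusted p = 0.217 by limma), with a treated channel not well above background, which bounds it at at least 2.15-fold. Itgb5 gave -0.70 and -0.42 (adjusted p = 0.322 by limma). Of the members well above background in at least 1 dye and below 0 on both arrays, these had the lowest estimates.

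On the other side lay Itga8 (A_51_P309920), with 0.60 and 1.14, Itga4, with 0.40 and 0.98, and Cdh11 (A_51_P506204), with 0.60 and 0.72. Their limma adjusted p were 0.284, 0.338 and 0.283. Itgb1 gave 0.26 and 0.22 with its probe A_51_P286527, and Itga5 gave 0.25 and -0.01. Fitted without the other arrays, 13 of the 66 members were called, 8 higher and 5 lower, against 12.1% of all probes. Beside those named they were Itga3, Itga6, Itgb2, Cdh16, Cdh24, a second Cdh11 probe and Cdh1, at -0.51, 0.90, 0.61, 0.53, 0.57, 0.54 and -0.67. Cdh24 and Cdh1 were not well above background in either dye on these arrays, and Itga6 had 1 unmarked spot.

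The responses of the genotypes were compared as the mutant minus the wild type log2 ratio. None of 62 members passed an adjusted p under 0.05 in limma, nor did any of all 40267 probes (0%). At an unadjusted p under 0.05 in limma there were 7 members (11.3%), 6 of them (9.68% of the members) higher in the mutant. Of all probes 5.95% were so in either direction and 3.32% higher. The lowest adjusted p was 0.542. Of the 40 members with unmarked values on all 4 arrays, 10 (25%) lay on opposite sides of 0 in the 2 genotypes on every array, against 11.5% of 29913 probes. In 7 of these the wild type values were below 0 and the mutant values above it: Itga7 (A_52_P413034), 2 probes of Itga8, Itgb2, Cdh4 (A_51_P238455) and 2 probes of Cdh11.

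Several of these had a low signal. Itga7 gave -0.78 and -0.82 in wild type and 0.23 and 0.29 in mutant cells (difference 1.06 ± 0.21, unadjusted p = 0.00148 in limma), but was well above background in neither dye on the mutant arrays. Cdh4 gave -1.22 and -0.94 against 0.27 and 0.08 (1.26 ± 0.28, unadjusted p = 0.00286 in limma). Itgb2 gave -0.33 and -0.27 against 0.54 and 0.67 (0.91 ± 0.22, unadjusted p = 0.00399 in limma). None of these passed the adjustment over all probes in the shared fit. On the 4 treatment arrays alone 5 members were called, all higher in the mutant, against 1.94% of all probes: Itga7, Cdh4, Itgb2, Itga8 (A_51_P309920) and Cdh11 (A_51_P506204). Itga8 gave -0.57 and -0.19 against 0.60 and 1.14, with a treated wild type channel that was not well above background, and Cdh11 -0.47 and -0.16 against 0.60 and 0.72. Itga2, Itgb6 and Itgb8 had 1 probe each with the reverse pattern, the largest difference being -0.67 ± 0.25 for Itgb6 (unadjusted p = 0.0292 in limma).

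**Figure D5:**
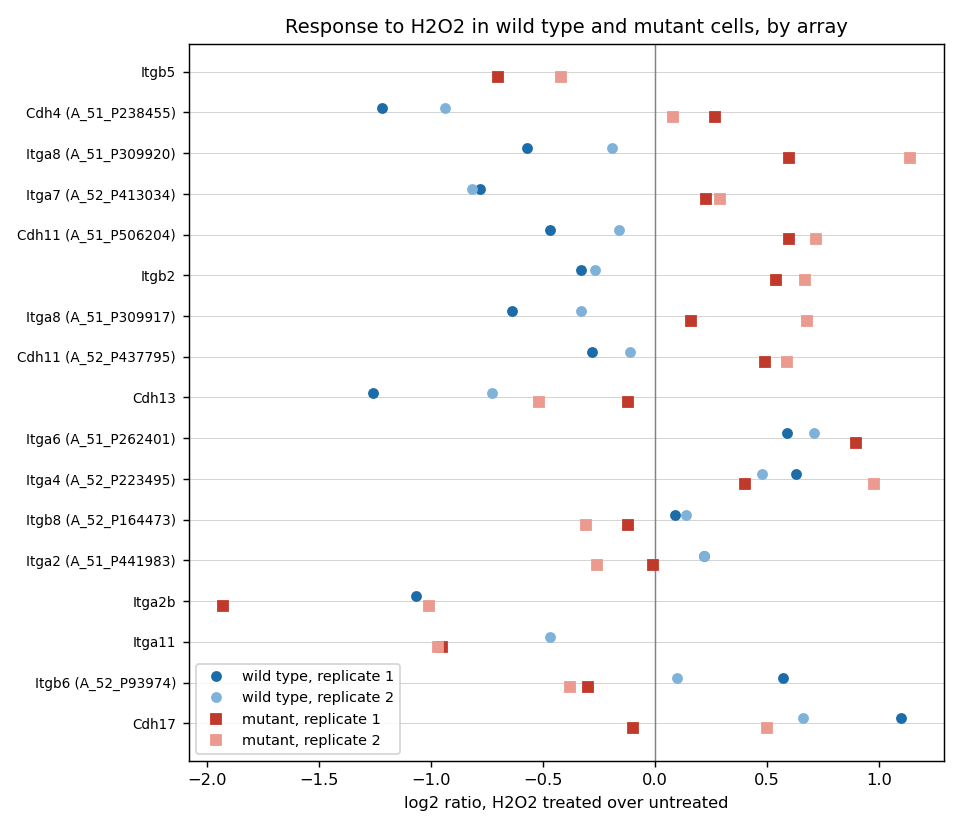
Log2 ratio of H2O2 treated over untreated cells (horizontal axis) on each wild type array (circles) and each mutant array (squares), for the 3 highest and lowest members of each genotype with the same sign on both arrays and the 10 members whose genotypes lay on opposite sides of 0; marked spots are not drawn. For Itga7, Cdh4, Itgb2, Itga8 and Cdh11 both circles lie left of 0 and both squares right of it.

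Other adhesion genes were counted in the same fit for untreated mutant against wild type cells, where 19.9% of all probes were called. Of 64 probes of 33 integrin adhesome genes, 14 were higher and 11 lower. The lower ones included 2 of 3 probes of Tln1 (talin), at -1.17 and -1.12 with the other at -0.03, and 1 of 2 of Vcl (vinculin), at -1.81 with the other at 0.16. Of 3 probes of Ptk2 (focal adhesion kinase) 1 was lower, at -1.25, and the others gave 0.35 and 0.07. The probes of Cd151, at 1.62, and Parvb, at 1.84, were higher, as were Lims2, at 1.21, and a probe of Src, at 1.00. Larger changes came from a Ptk2b probe, at -3.03, and a Cd9 probe, at 2.32, both from replicate 3 alone. A Tln2 probe gave -2.38 and a Cav1 probe -2.14, the latter from replicate 4 alone. Further probes of Src, Ptk2b, Cd9, Tln2 and Cav1 were not called. Of 52 probes of 30 integrin ligand genes, 4 were higher and 11 lower, the lower ones with 2 of 4 probes of Thbs1, 2 of 3 of Tnc, Ctgf at -3.05, Cyr61 at -1.99 and Spp1 at -1.67, Thbs1 and Spp1 from replicate 4 alone. For Npnt (nephronectin), a ligand of Itga8, 1 of 3 probes was lower, at -0.91, and the others gave -0.28 and 0.26. One of these Thbs1 (thrombospondin 1) probes was also lower in treated wild type cells, at -3.08 and -2.20 (limma adjusted p = 0.0364). It was 1 of 45 ligand probes called there, against 0.836% of all probes. Of 34 probes of catenins and cadherin adaptors, 4 were higher and 4 lower, and of 17 desmosomal cadherin probes 1 of 2 for Dsg3 was higher (1.03) and 1 of 3 for Dsg2 lower (-1.62).

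Integrins whose names hold a letter in place of the number fell outside the rule. Of their 12 probes 2 were higher and 3 lower in untreated mutant cells, against 10.2% and 9.76% of all probes. Itgav (αv), the partner of Itgb3 and Itgb5, was lower with 2 probes, at -2.23 and -2.02 and at -1.83 and -1.56, and higher with the remaining one, at 1.04 and 1.62. One of the lower probes was also lower in treated wild type cells, at -1.10 and -0.97 (limma adjusted p = 0.0487). Like the probes of Itga8, those of Itgav did not give 1 direction.

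Markers of other cell types were read in the same comparison of untreated mutant and wild type cells, since several members mark such cells. There 10.2% of all probes were called higher and 9.76% lower, and 18.4% and 17.5% were so at an unadjusted p under 0.05 in limma. Of 6 skeletal muscle probes, beside which Itga7 and Cdh15 stand, 1 was lower (Myh3, embryonic myosin, -1.55) and none higher, with 3 lower at an unadjusted p under 0.05, and all 6 were well above background in Cy3 on every array. Of 10 macrophage probes, beside which Itgb2 stands, 1 of 2 for Emr1 was higher (0.56) and 1 of 3 for Ptprc lower (-0.91, from replicate 3 alone), and 6 to 9 were well above background in Cy3. Of 8 epithelial probes 1 was higher and 3 lower, and of 6 endothelial probes none was called by limma, with 1 higher at an unadjusted p under 0.05. The summed log2 level of the muscle list in Cy3 of the treatment arrays was 11.84 and 12.21 in untreated wild type and 12.03 and 12.04 in untreated mutant cells. That of the macrophage list was 8.52 and 9.32 in wild type and 8.94 and 8.51 in mutant cells. In both lists the levels of the genotypes overlapped. The mast cell and basophil list, of 3 probes, differed most: its summed log2 level was 10.15 and 9.22 in untreated wild type and 6.61 and 6.22 in untreated mutant cells in Cy3 of the treatment arrays, and 9.74 and 9.84 in wild type against 6.38 and 5.42 in mutant cells on replicates 3 and 4. Of its probes Mcpt8, a basophil protease, was lower (-4.26 and -5.38, limma adjusted p = 0.000407), Kit gave -0.24 and -0.65, and Cpa3 a single 0.11. In the mutant channel 1 of the 3 probes was well above background on replicate 3 and 0 on replicate 4. The -5.38 and the summed 5.42 on replicate 4 are thus not measured sizes. Of 4 megakaryocyte probes, beside which Itga2b stands, none was called by limma, with 1 higher and 1 lower at an unadjusted p under 0.05. The part of these lists in the values of the members was not tested.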

How the data were processed

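The authors deposited, for each array, spot mean intensities with their local backgrounds for both dyes, flags, and a log10 ratio from Agilent Feature Extraction A.7.5.1 (per the file headers; the study's methods name another version and cytoplasmic RNA, the labels total RNA). The authors' value matrix holds log2 ratios that correlated with those computed here at 0.99949 or more, with medians of 0 to 0.02 per array and 2466 missing on replicate 4; its centring is not stated. Here the local background was subtracted, loess run within arrays with control spots at weight 0 (limma 3.58.1, R 4.3.3, with data.table at version 1.17.8), marked outlier spots were then left out, saturated spots kept, and spots of a probe averaged. lmFit and eBayes were run on all 6 arrays with 1 coefficient per comparison (3 residual degrees of freedom, 4.18 from the prior), two-sided, with Benjamini-Hochberg adjustment over all probes with a value. The Cy3 comparison used loess and Aquantile on 4 arrays. A bound is the brighter dye's mean over the dimmer dye's floor, the lowest signal well above background, and is open to dye bias, since no array exchanged the dyes. The number of arrays, 2 per comparison, limits the precision. Members named are those called in any fit, the 3 largest changes in each direction measured alike on both arrays, fixed cell type genes, and further probes of these genes. Members, lists and rules were chosen with earlier results of these data known. Symbols are those of the files; all 52 member accessions found in the RefSeq annotation (GRCm38.p6) carried the same symbol. The steps were tested on simulated data. Figures used Python 3.11.15, pandas 2.3.3 and matplotlib 3.10.9. One further marker list is not reported here.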

Additional observations from a re-analysis of the deposited data

How the results depend on the processing

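For untreated mutant against wild type cells, where 22 members were called, the count was 9 with the log ratios of Feature Extraction (all 9 among the 22), 12 with probes of a mean log2 intensity above 6, 6 with the comparison's own arrays, 1 under the study's thresholds and 0 within Cy3, with marked spots left out or kept, and it lay between 14 (without mutant replicate 1, or without mutant replicate 2) and 30 (without replicate 3 of the genotype arrays) with 1 array left out. Under normexp 15 of the 22 stayed called, and no called probe that was tested changed sign under any alternative other than the Cy3 comparison, where Itgb2 and Cdh23 did (Itgb2 at -0.01 with marked spots kept). For the wild type response, called members went from 0 to 1 with normexp, 1 with the log ratios of Feature Extraction, 3 with the authors' table, 3 with marked spots kept, 1 with either filter on dim probes, 23 on the own arrays and 19 at an unadjusted p, and lay between 0 and 23 with 1 array left out, 23 being the count without genotype replicate 3 or 4, when the spread came from the treatment arrays alone. For the mutant response the count went from 0 to 13 on the own arrays, 12 at an unadjusted p, and 0 to 12 with 1 array left out, 12 again without genotype replicate 3 or 4. For the difference it went from 0 to 5 on the 4 treatment arrays, 7 at an unadjusted p, and 0 to 5 with 1 array left out, likewise 5 without either genotype array.

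The ratios of same-numbered treatment arrays did not deviate together (correlation of -0.0366, 2 pairs). What acts alike on both dyes of an array cancels in a ratio, so this cannot show whether same-numbered cultures shared an origin. With the replicate block 0 members were called in both responses and in the difference, and all called probes of the wild type response went from 337 to 0. A slide or scan block was not run, since each slide holds 1 array and the headers give no scan date. Loess curves with marked spots at weight 0, or over all spots, were added after the data were seen and left the same 22 called; the filter on probes well above background left 21 of them. Over all probes, the wild type count of 337 became 2042 under normexp and 10688 on the own arrays, and the genotype count of 8199 became 3352 with the log ratios of Feature Extraction and 1537 on the own arrays. Signal limits many values: of the 22 called members, 16 were well above background in both dyes on both arrays, and Cy5 was so on neither array for 2.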
